A study of Danio rerio with 12 samples.

Results

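This account follows 9 genes of cortisol signalling in zebrafish larvae exposed to bepridil, a calcium channel blocker. The genes were taken by name from the deposited gene counts: nr3c1, nr3c2, hsd11b2, fkbp5, klf9, tsc22d3, sgk1, cebpd and pck1. All 9 names were present among 25099 in the table, and all 9 passed the filter on low counts that left 21581 genes for testing.

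Cortisol, the main glucocorticoid of fish and of humans, enters cells and binds the glucocorticoid receptor Nr3c1. The receptor waits in the cytoplasm in a complex with Hsp90 and its cochaperones, and after binding hormone it moves into the nucleus and changes the transcription of its target genes. In fish, which lack aldosterone, the mineralocorticoid receptor Nr3c2 also binds cortisol, and the enzyme Hsd11b2 inactivates the hormone. Several targets feed back on the pathway: the cochaperone Fkbp5 lowers the hormone affinity of the receptor in mammals.

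The larvae were of the AB strain and were sampled at 120 hours post fertilization after exposure to 0, 250, 750 or 1295 ng/mL bepridil. Each dose had 3 libraries, and RNA for each library came from 15 larvae pooled, so differences between individual larvae are not visible. The labels call the tissue embryo and name no dissected organ. Markers of liver, intestine, pronephros, ionocytes and muscle were all counted, with none at 0 over the 12 libraries together. In such RNA, fewer cells of a type and less RNA per cell cannot be told apart. Each library held between 15571556 and 18284169 counts assigned to genes. The labels do not say whether libraries of a dose came from separate clutches or tanks, so p-values measure the spread between these libraries, which may be technical. Levels below are CPM, read counts set to a common library size scaled by TMM, a trimmed-mean correction for differences in RNA composition. CPM are not divided by gene length, so levels are compared between samples and not between genes. A gene was called changed when its p-value from edgeR's quasi-likelihood test, adjusted by Benjamini-Hochberg over all tested genes, was under 0.05.

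Against untreated larvae, 5 of the 9 genes were higher at 250 ng/mL and none was lower, where 10.5% of all tested genes were called, 6.03% as higher and 4.48% as lower. At 750 ng/mL, 4 were higher and none lower, against 6.33% of all genes called, 4.2% as higher and 2.14% as lower. At 1295 ng/mL, 4 were again higher and none lower, but 41% of all genes were called, 18.8% as higher and 22.2% as lower. The joint test of the 3 dose coefficients asks whether there was any difference among the 4 doses. In it 6 of the 9 passed (all but nr3c1, fkbp5 and pck1), against 55.2% of all genes. Of those that passed, hsd11b2 was called at no single dose against untreated larvae. The genes called against untreated larvae were nr3c2, klf9, tsc22d3, sgk1 and cebpd at 250 ng/mL, klf9, tsc22d3, sgk1 and cebpd at 750 ng/mL, and tsc22d3, sgk1, cebpd and pck1 at 1295 ng/mL. All 3 treated libraries lay outside the range of the untreated ones for 6 genes at 250 ng/mL, 4 at 750 ng/mL and 4 at 1295 ng/mL, where this held for 32.6%, 26.3% and 54.1% of all genes. The 3 comparisons share the same untreated libraries. The 9 genes were chosen with earlier results of these data known, so their counts describe them and do not test them as a set. The count at 1295 ng/mL was 2 without untreated replicate 1, and the counts without untreated replicate 2 are given with the genes it touches.

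**Figure D1:**
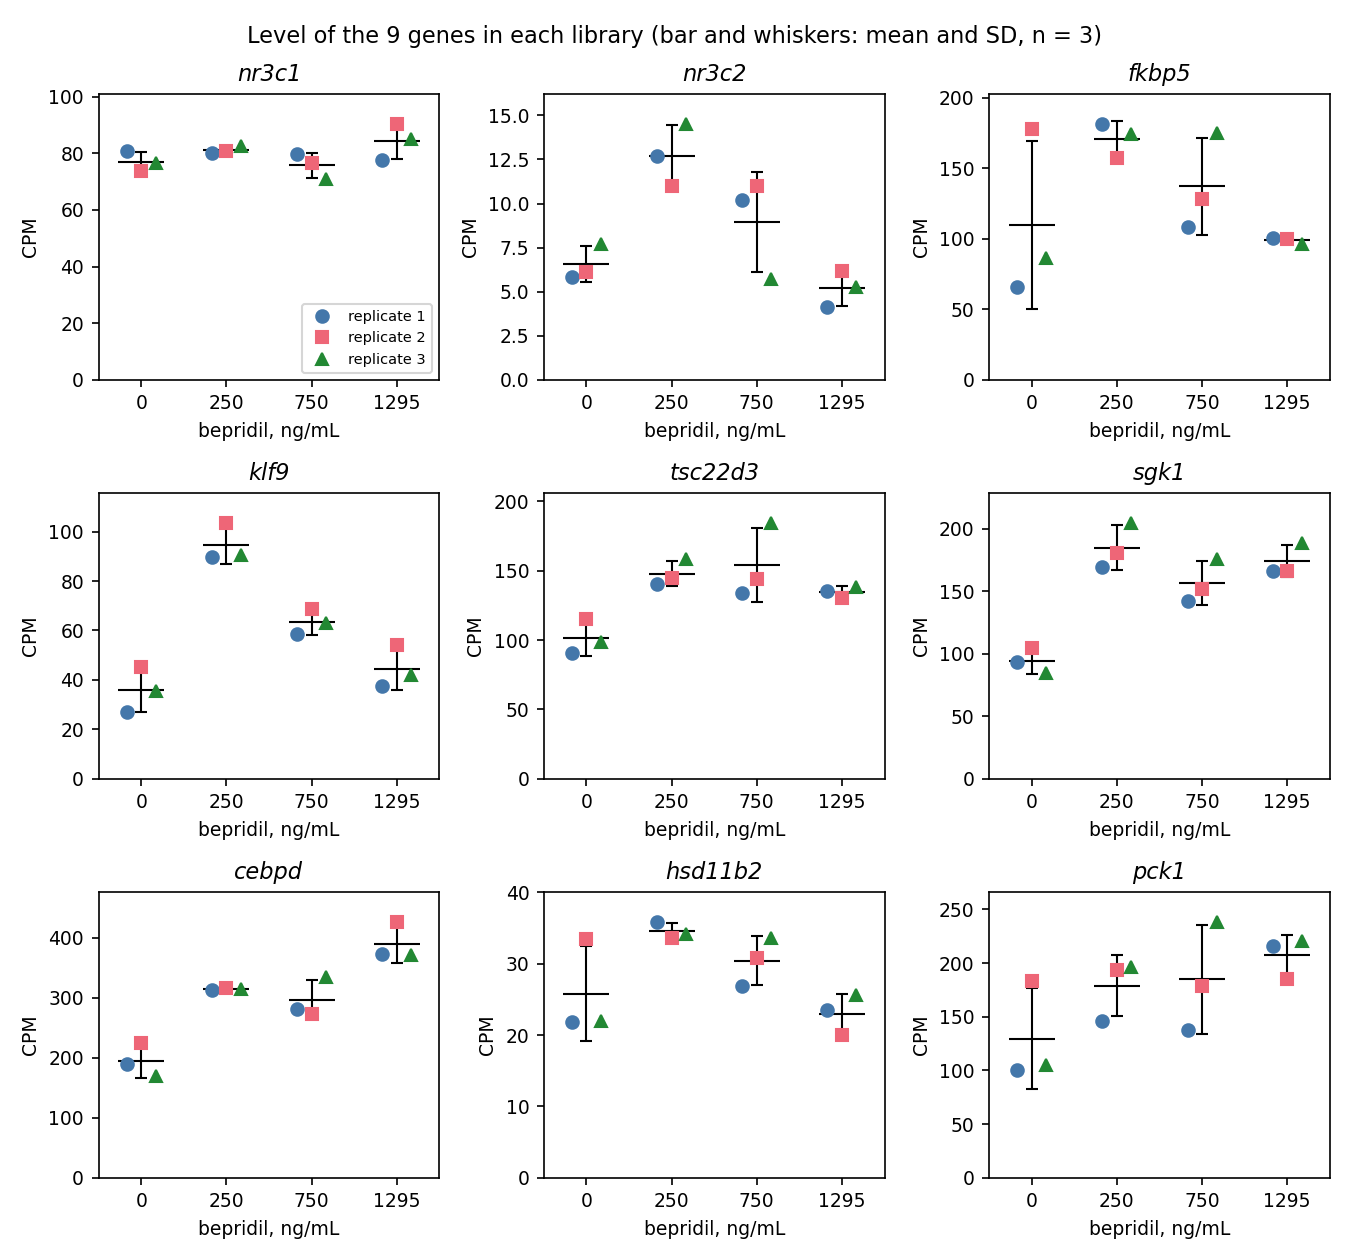
Levels of the 9 genes in each of the 12 libraries in CPM, with 1 panel per gene and the doses in ng/mL on the horizontal axis; points are libraries, marked by replicate number, and bars are the mean and SD of 3. The nr3c1 levels stay between 71.1 and 90.3 CPM in all libraries, while klf9 peaks at 250 ng/mL and the sgk1, cebpd and tsc22d3 levels of every treated library lie above those of every untreated one.

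Transcripts of the glucocorticoid receptor itself did not pass the test at any dose. The nr3c1 gene had 80.8, 73.9 and 76.7 CPM in the untreated libraries, 80.2, 81 and 82.5 CPM at 250 ng/mL, 79.7, 76.5 and 71.1 CPM at 750 ng/mL, and 77.6, 90.3 and 85.1 CPM at 1295 ng/mL. The ranges of the treated groups each overlapped that of the untreated libraries. The log2 fold change was 0.07 at 250 ng/mL (95% interval -0.10 to 0.25, adjusted p = 0.614), -0.03 at 750 ng/mL (-0.20 to 0.15, adjusted p = 0.898) and 0.13 at 1295 ng/mL (-0.05 to 0.31, adjusted p = 0.232). The intervals leave room for a log2 change between -0.20 and 0.31 over the 3 doses and do not show that the level was the same. With libraries scaled by total counts alone, the value at 1295 ng/mL was -0.13, where the median of all genes was -0.27, and with TMM that median was -0.02.

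The mineralocorticoid receptor gene nr3c2 was higher at the lowest dose, at about 1.94 times its untreated level. It had 5.83, 6.13 and 7.72 CPM in untreated larvae, 12.7, 11 and 14.5 CPM at 250 ng/mL, 10.2, 11 and 5.72 CPM at 750 ng/mL, and 4.15, 6.19 and 5.25 CPM at 1295 ng/mL. All libraries at 250 ng/mL lay above all untreated ones, while at 750 ng/mL replicate 3 fell below every untreated library. The log2 fold change at 250 ng/mL was 0.96 (SE 0.22, adjusted p = 0.0112). The call was lost without untreated replicate 1 (0.88, adjusted p = 0.0568) or without replicate 3 at 250 ng/mL (0.85, adjusted p = 0.0643). At 750 ng/mL the value was 0.45 (SE 0.22, adjusted p = 0.252), and leaving out replicate 3 of that dose gave 0.64 with an adjusted p of 0.0485. The value at 1295 ng/mL was -0.34 (SE 0.23, adjusted p = 0.254).

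Replicate 2 of the untreated larvae stood apart in hsd11b2, fkbp5 and pck1. It is singled out here for its high levels in these genes, so leaving it out had to raise their fold changes against untreated larvae. Calls gained in that way are not independent support. None of these 3 genes was called at 250 or 750 ng/mL with this library, and all 3 were called at both doses without it. At the top dose pck1 was called with and without it, fkbp5 and hsd11b2 in neither case, and klf9 only without it. It held the highest untreated level for 7 of the 9 genes (all but nr3c1 and nr3c2), where it was the highest of 3 for 37.4% of all tested genes. It was also the highest untreated library for 31 of 45 other glucocorticoid-responsive genes. The same library was highest for 19 of 22 liver markers and 15 of 23 intestine markers. It was also highest for 11 of 18 ionocyte, 13 of 24 muscle and 9 of 20 pronephros markers and 9 of 17 inflammation genes. Liver markers summed to 15643.3 CPM in it, against 13193.0 and 13563.5 CPM in the other untreated libraries. Without this library 8 of the 9 genes were called at 250 ng/mL, 7 at 750 ng/mL and 5 at 1295 ng/mL, all as higher, while the number of all genes called was 1988, 1354 and 8307, against 2269, 1367 and 8848 with it. The part of liver or intestine RNA in the levels of these genes was not tested.

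Hsd11b2 converts cortisol to inactive cortisone and so limits the hormone a cell sees. Its gene had 21.8, 33.4 and 22 CPM in untreated larvae, 35.8, 33.6 and 34.1 CPM at 250 ng/mL, 26.8, 30.8 and 33.6 CPM at 750 ng/mL, and 23.5, 20 and 25.6 CPM at 1295 ng/mL. Untreated replicate 2 lay just under the lowest library at 250 ng/mL, and the other untreated libraries were below every library at 250 and 750 ng/mL. With all libraries the log2 fold change was 0.42 at 250 ng/mL (SE 0.15, adjusted p = 0.0868), 0.24 at 750 ng/mL (SE 0.15, adjusted p = 0.386) and -0.16 at 1295 ng/mL (SE 0.15, adjusted p = 0.423). Without untreated replicate 2 it was 0.65 at 250 ng/mL (adjusted p = 0.0051), 0.47 at 750 ng/mL (adjusted p = 0.0392) and 0.07 at 1295 ng/mL (adjusted p = 0.688), so both lower doses passed and the sign at the top dose turned. Scaled by total counts alone, hsd11b2 was lower at 1295 ng/mL (-0.41, adjusted p = 0.0459).

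The pattern was wider for fkbp5, which encodes the receptor cochaperone and is among the most responsive glucocorticoid targets in vertebrates. It had 65.7, 177.8 and 86.5 CPM in untreated larvae, 181.4, 157.3 and 174.5 CPM at 250 ng/mL, 108.6, 128.0 and 175.2 CPM at 750 ng/mL, and 100.3, 100 and 96.6 CPM at 1295 ng/mL. The untreated libraries spanned nearly the whole range of the study, and the other pair of untreated libraries lay below every treated library. The log2 fold change was 0.64 at 250 ng/mL (SE 0.26, adjusted p = 0.133), 0.32 at 750 ng/mL (SE 0.26, adjusted p = 0.524) and -0.15 at 1295 ng/mL (SE 0.26, adjusted p = 0.665). Leaving out untreated replicate 2 moved these to 1.17 (adjusted p = 0.000701), 0.85 (adjusted p = 0.00766) and 0.38 (adjusted p = 0.0878), which turned the sign at 1295 ng/mL.

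The gene pck1 encodes the cytosolic phosphoenolpyruvate carboxykinase, a rate-limiting enzyme of gluconeogenesis in liver and kidney. It had 100.1, 183.7 and 105.3 CPM in untreated larvae, 146.2, 193.8 and 196.7 CPM at 250 ng/mL, 137.7, 178.6 and 238.1 CPM at 750 ng/mL, and 215.6, 185.5 and 220.7 CPM at 1295 ng/mL. All libraries at 1295 ng/mL lay above all untreated ones, the lowest of them only just above untreated replicate 2. The log2 fold change was 0.68 at 1295 ng/mL (SE 0.22, adjusted p = 0.0226), 0.46 at 250 ng/mL (SE 0.22, adjusted p = 0.191) and 0.51 at 750 ng/mL (SE 0.22, adjusted p = 0.188). Without untreated replicate 2, all 3 doses passed, at 0.80 for 250 ng/mL (adjusted p = 0.0163), 0.85 for 750 ng/mL (adjusted p = 0.0153) and 1.01 for 1295 ng/mL (adjusted p = 0.00101). The call at 1295 ng/mL was lost without untreated replicate 1 (0.52, adjusted p = 0.0924) or 3 (0.55, adjusted p = 0.102), without replicate 1 (0.65, adjusted p = 0.0577) or 3 (0.63, adjusted p = 0.0602) of that dose, and with total counts as the scale (0.43, adjusted p = 0.125). At this dose 14 of 22 liver markers (63.6%, where 41% of all genes were called) were higher and none lower. With total counts as the scale, 10 liver markers were higher and 3 lower. Without untreated replicate 1, 13 were higher and 2 lower, and some other alternatives had 1 lower. The liver markers summed to 22047.8 to 22537.3 CPM, against 13193.0 to 15643.3 CPM in untreated larvae. The part of liver RNA in the pck1 level was not tested.

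**Figure D2:**
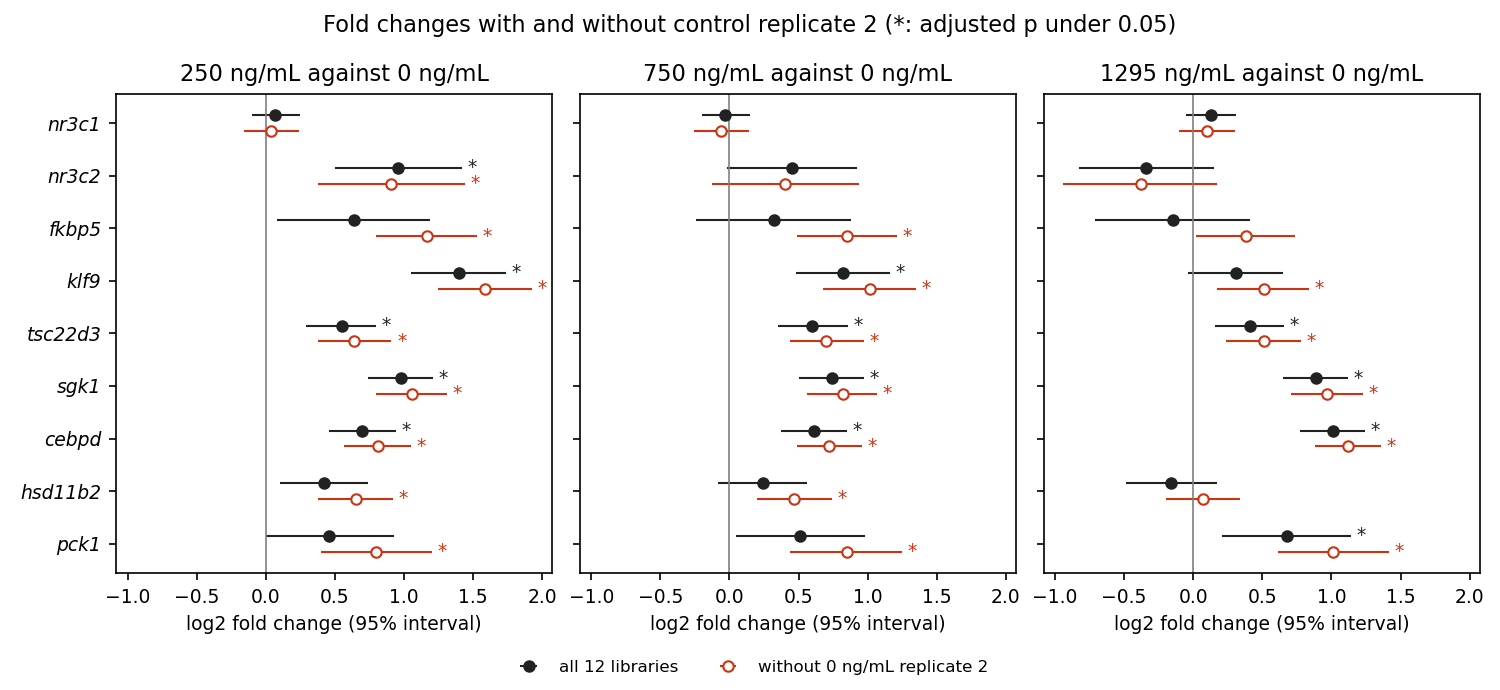
Log2 fold changes of the 9 genes at each dose against 0 ng/mL, with 95% intervals, from all 12 libraries and again without untreated replicate 2. That library was singled out for its high levels in some of these genes, so leaving it out had to raise their fold changes. Leaving that library out moves fkbp5 at 250 ng/mL to 1.17, where all libraries gave 0.64, and nr3c2 to 0.91, where they gave 0.96.

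The other targets did not depend on that library for their direction. Klf9, a zinc finger transcription factor that in zebrafish larvae is a known mediator of chronic cortisol responses, gave the widest change of the 9 genes. The klf9 gene had 27.1, 45.2 and 35.6 CPM in untreated larvae, 89.7, 103.4 and 90.4 CPM at 250 ng/mL, 58.6, 68.6 and 62.9 CPM at 750 ng/mL, and 37.6, 54 and 41.9 CPM at 1295 ng/mL. Every library at 250 and at 750 ng/mL lay above every untreated one, whereas the range at 1295 ng/mL overlapped that of the untreated libraries. The gene was higher by 1.40 on the log2 scale at 250 ng/mL (SE 0.16, 2.63-fold, adjusted p = 0.000127) and by 0.82 at 750 ng/mL (SE 0.16, 1.76-fold, adjusted p = 0.00671). At 1295 ng/mL the value was 0.31 (SE 0.16, adjusted p = 0.141), which became 0.51 with an adjusted p of 0.0198 without untreated replicate 2.

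The gene sgk1, which encodes a kinase that regulates ion channels and transporters in mammals, was higher at all 3 doses. It had 93.6, 104.4 and 84.3 CPM in untreated larvae, 169.5, 181.0 and 204.5 CPM at 250 ng/mL, 142.5, 151.5 and 176.0 CPM at 750 ng/mL, and 166.6, 166.4 and 188.9 CPM at 1295 ng/mL. No treated library fell within the untreated range. On the log2 scale sgk1 differed by 0.98 at 250 ng/mL (SE 0.11, adjusted p = 0.000111), 0.74 at 750 ng/mL (SE 0.11, adjusted p = 0.00135) and 0.89 at 1295 ng/mL (SE 0.11, adjusted p = 4.35e-05). These calls held in every alternative run.

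The gene cebpd, a bZIP transcription factor of the acute-phase response in mammals, was also higher at all doses and highest at the top one. It had 189.4, 224.1 and 169.0 CPM in untreated larvae, 312.9, 316.8 and 315.0 CPM at 250 ng/mL, 281.8, 273.6 and 334.0 CPM at 750 ng/mL, and 372.8, 425.8 and 370.6 CPM at 1295 ng/mL. All libraries at 1295 ng/mL lay above all others. On the log2 scale cebpd differed by 0.70 at 250 ng/mL (SE 0.11, adjusted p = 0.00126), 0.61 at 750 ng/mL (SE 0.11, adjusted p = 0.00426) and 1.01 at 1295 ng/mL (SE 0.11, 2.01-fold, adjusted p = 2.11e-05), and each held in every alternative run. At 1295 ng/mL 41% of all genes were called, and of 17 inflammation genes 12 (70.6%) were higher as well and none was lower. Among them irg1l, which makes itaconate in mammalian macrophages, averaged 42.9 CPM, against 11.6 CPM in untreated larvae. That list had 2 higher at 250 ng/mL and 0 at 750 ng/mL, or 11.8% and 0%, where 10.5% and 6.33% of all genes were called. The count at 250 ng/mL was 0 without untreated replicate 1 or 3, without replicate 1 at 250 ng/mL or without replicate 1 at 1295 ng/mL, 1 without untreated replicate 2, replicate 3 at 250 ng/mL, replicate 2 at 750 ng/mL or replicate 3 at 1295 ng/mL, and 4 without replicate 2 at 1295 ng/mL. The part of inflammation in the cebpd level was not tested.

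The gene tsc22d3 encodes Gilz, a leucine zipper protein that restrains inflammatory transcription in mammals. It had 90.4, 115.2 and 98.7 CPM in untreated larvae, 140.8, 144.8 and 158.4 CPM at 250 ng/mL, 134.3, 143.8 and 184.3 CPM at 750 ng/mL, and 135.5, 130.2 and 138.4 CPM at 1295 ng/mL. Treated and untreated ranges did not overlap at any dose. Its log2 fold change was 0.55 at 250 ng/mL (SE 0.12, adjusted p = 0.00921), 0.60 at 750 ng/mL (SE 0.12, adjusted p = 0.00654) and 0.41 at 1295 ng/mL (SE 0.12, adjusted p = 0.0126). The call at 750 ng/mL was lost in a fit of the compared groups alone (0.57, adjusted p = 0.0515). The call at 1295 ng/mL was lost with total counts as the scale (0.16, adjusted p = 0.296) and without untreated replicate 1 (0.33, adjusted p = 0.053).

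Between the top dose and the lower ones, the 9 genes were called about as often as all genes. At 1295 against 250 ng/mL, 4 were lower (nr3c2, fkbp5, klf9 and hsd11b2) and 1 was higher (cebpd), where 57.4% of all genes were called, 32.3% as lower and 25.1% as higher. At 1295 against 750 ng/mL, 3 were lower (nr3c2, klf9 and hsd11b2) and 1 was higher (cebpd), against 52.1% of all genes, 28.7% as lower and 23.4% as higher. The count against 250 ng/mL was 3 without replicate 1 at 250 ng/mL or replicate 2 at 1295 ng/mL. The count against 750 ng/mL was 1 without replicate 2 at 750 ng/mL and 2 without replicate 1 at 1295 ng/mL. All 3 libraries at the top dose lay beyond those of the lower one for 6 of the 9 genes against 250 ng/mL and 4 against 750 ng/mL, where 66.2% and 59.4% of all genes did so.

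The widest falls were those of nr3c2 and klf9. The klf9 level averaged 44.5 ± 8.51 CPM at 1295 ng/mL, against 94.5 ± 7.71 CPM at 250 ng/mL (SD, n = 3 each), or -1.09 on the log2 scale (SE 0.16, adjusted p = 5.2e-05 by edgeR). Against 750 ng/mL it was -0.51 (SE 0.16, adjusted p = 0.0149), a call lost without replicate 2 at 750 ng/mL (-0.45, adjusted p = 0.057) or without replicate 1 (-0.40, adjusted p = 0.0747) or 3 (-0.47, adjusted p = 0.0516) at 1295 ng/mL. The nr3c2 level averaged 5.2 ± 1.02 CPM at 1295 ng/mL, against 12.7 ± 1.75 CPM at 250 ng/mL (SD, n = 3 each), or -1.30 on the log2 scale (SE 0.22, adjusted p = 0.000183 by edgeR). Against 750 ng/mL it was -0.79 (SE 0.23, adjusted p = 0.00894), and -0.62 with an adjusted p of 0.0502 without replicate 2 at 750 ng/mL.

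The feedback cochaperone and the cortisol-inactivating enzyme were lower at the top dose too. The fkbp5 level averaged 99 ± 2.02 CPM at 1295 ng/mL, against 171.1 ± 12.4 CPM at 250 ng/mL (SD, n = 3 each), or -0.79 on the log2 scale (SE 0.26, adjusted p = 0.0179 by edgeR). That call was lost with DESeq2 (-0.72, adjusted p = 0.0713), without replicate 1 at 250 ng/mL (-0.74, adjusted p = 0.0503) and without replicate 2 at 1295 ng/mL (-0.73, adjusted p = 0.0554). At 1295 against 750 ng/mL fkbp5 had a value of -0.47 (SE 0.26, adjusted p = 0.143). Without untreated replicate 2, the same value had an SE of 0.15 and an adjusted p of 0.0155. This contrast holds no untreated library, so the value stayed and only the estimate of spread changed. That library was singled out for its high fkbp5 level, so this call is not independent support either. The fkbp5 contrast also passed with total counts as the scale (-0.70, adjusted p = 0.0353) and in a fit of the compared groups alone (-0.48, adjusted p = 0.025). The hsd11b2 gene was lower at 1295 than at 250 ng/mL (log2 fold change -0.58, SE 0.15, adjusted p = 0.00439). Its value at 1295 against 750 ng/mL was -0.40 (SE 0.15, adjusted p = 0.0383), and 7 of 20 alternatives lost this call, among them leaving out replicate 2 (-0.39, adjusted p = 0.0842) or 3 (-0.27, adjusted p = 0.172) at 750 ng/mL and replicate 1 (-0.41, adjusted p = 0.0734) or 2 (-0.27, adjusted p = 0.201) at 1295 ng/mL. At 1295 ng/mL the pronephros markers, of the larval kidney, summed to 349.5 to 388.4 CPM, against 441.6 to 488.6 CPM in untreated larvae. Of these markers 6 of 20 were lower and none higher against untreated larvae (30%, where 41% of all genes were called). Set against 250 ng/mL, 10 of the 20 were lower and none higher (50%, all genes 57.4%). Against 750 ng/mL, 10 were lower and 1 higher (55%, all genes 52.1%). That 1 was 0 with total counts as the scale, where 14 were lower, and 2 with DESeq2. The sums were 504.8 to 520.5 CPM at 250 ng/mL and 489.4 to 515.1 CPM at 750 ng/mL. The part of kidney RNA in the hsd11b2 level was not tested.

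The gene cebpd moved the other way, being higher at 1295 than at 250 ng/mL by 0.31 (SE 0.11, adjusted p = 0.0272) and than at 750 ng/mL by 0.39 (SE 0.11, adjusted p = 0.00791). The call against 250 ng/mL was lost in 5 alternatives, with values of 0.30 or 0.31 without replicate 1 (adjusted p = 0.0654), 2 (adjusted p = 0.0568) or 3 (adjusted p = 0.0566) at 250 ng/mL or replicate 2 at 1295 ng/mL (adjusted p = 0.0505), and 0.04 with total counts as the scale (adjusted p = 0.699). The call against 750 ng/mL was lost only with total counts (0.16, adjusted p = 0.167). For sgk1 and tsc22d3 neither contrast passed. The sgk1 value was -0.09 against 250 ng/mL (95% interval -0.32 to 0.14) and 0.15 against 750 ng/mL (-0.08 to 0.38), where leaving out replicate 3 at 750 ng/mL gave 0.29 with an adjusted p of 0.0441. The tsc22d3 value was -0.14 against 250 ng/mL (-0.39 to 0.12) and -0.19 against 750 ng/mL (-0.45 to 0.06). With total counts as the scale, both genes were called lower at 1295 than at 250 ng/mL (sgk1 -0.35, adjusted p = 0.0128; tsc22d3 -0.40, adjusted p = 0.00932), and tsc22d3 was also called lower against 750 ng/mL (-0.42, adjusted p = 0.00715). That scaling moves the median gene to -0.27 at 1295 against 0 ng/mL, -0.33 against 250 ng/mL and -0.29 against 750 ng/mL. Relative to that median, the sgk1 and tsc22d3 differences are close to those under TMM, whose medians were -0.02, -0.07 and -0.05. With total counts 14.5% of the genes called at 1295 against 0 ng/mL were higher, and 45.9% with TMM.

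**Figure D3:**
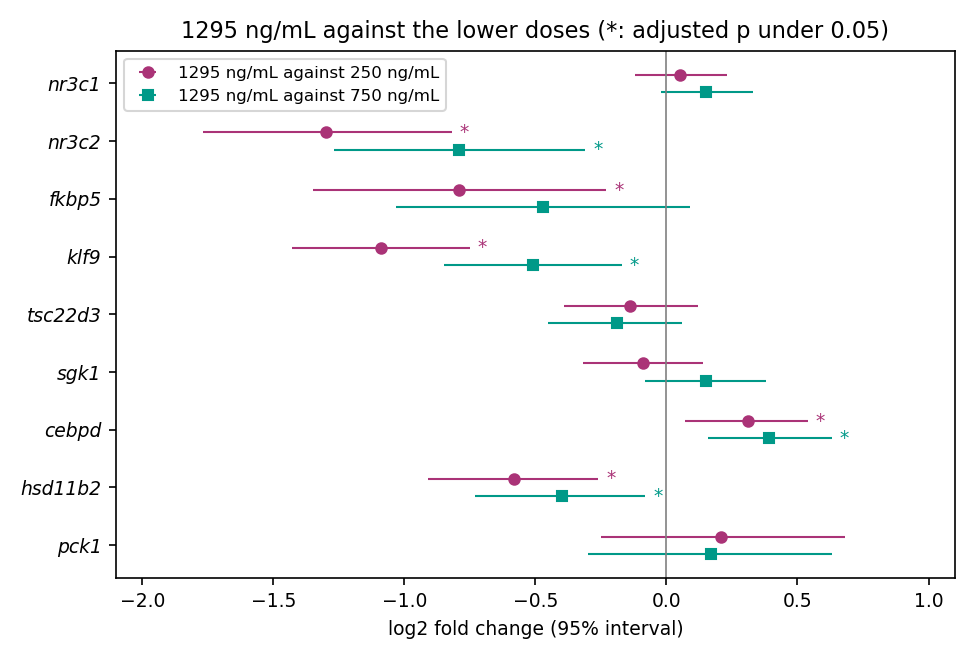
Log2 fold changes of the 9 genes at 1295 ng/mL against 250 and against 750 ng/mL, with 95% intervals; asterisks mark adjusted p under 0.05. The genes nr3c2 (-1.30 against 250 ng/mL), klf9 (-1.09), fkbp5 (-0.79) and hsd11b2 (-0.58) lie left of 0, and cebpd (0.31) right of it.

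None of the 9 genes was called between 750 and 250 ng/mL, and none of 21581 genes was (0%), with 1681 genes at an unadjusted p under 0.05, 5 called by DESeq2 and 0 by limma-voom. For nr3c1, nr3c2 and klf9 all libraries at 750 ng/mL lay below all at 250 ng/mL, which held in either direction for 13.7% of all genes. The klf9 value was -0.58 (95% interval -0.91 to -0.24, unadjusted p = 0.00233, adjusted p = 0.619 by edgeR). The nr3c2 value was -0.51 (95% interval -0.96 to -0.06, adjusted p = 0.619 by edgeR). At 750 ng/mL replicate 3 was the highest library for 6 of the 9 genes, where it was highest of 3 for 39.8% of all genes.

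Across the 12 libraries the 9 genes fell into patterns that can be described by the genes most like them, among 13501 genes with a mean of at least 5 CPM and a curated symbol. Pearson's r of log2 CPM was used over all 12 libraries, which share their dose groups. Genes that move with dose in a similar way thus have a high r, while genes that move with dose in different ways need not. The closest to klf9 were ampd3b, an AMP deaminase gene (r = 0.965), and ankha, a homologue of the mouse pyrophosphate transporter gene Ank (r = 0.965). The closest to nr3c2 were akap12a (r = 0.971), which encodes a kinase anchoring protein, and tacc1 (r = 0.963). For fkbp5 they were cand2 (r = 0.967) and csrnp1a (r = 0.921), with hsd11b2 ranked 3 (r = 0.917). For hsd11b2 they were slc47a1 (r = 0.926), which encodes a toxin extrusion transporter, and map1lc3cl (r = 0.925). Like fkbp5 and hsd11b2, cand2 and csrnp1a had their highest untreated level in replicate 2. It was 58.4 CPM for cand2, against 36.6 and 40 CPM, and 18.2 CPM for csrnp1a, against 11.5 and 14.8 CPM. The part of that library in these r values was not tested. The closest to sgk1 were arg2, the mitochondrial arginase gene (r = 0.969), and slc13a2, a dicarboxylate transporter gene (r = 0.956). The closest to cebpd were ccdc28a (r = 0.975) and notum1b (r = 0.968), which encodes a Wnt-inactivating enzyme. For tsc22d3 they were rasl11b (r = 0.948) and igfbp1b, a gene for an insulin-like growth factor binding protein (r = 0.945). For pck1 they were slc25a25a, a mitochondrial carrier gene (r = 0.915), and arl5c (r = 0.913), and for nr3c1 they were pctp (r = 0.934) and ube2j1 (r = 0.905). Among the 9 genes themselves, r ranged from -0.444 for nr3c1 with hsd11b2 to 0.917 for fkbp5 with hsd11b2. It was 0.900 for sgk1 with cebpd, 0.875 for sgk1 with tsc22d3, 0.814 for tsc22d3 with pck1 and 0.797 for klf9 with fkbp5. For klf9 with nr3c2 it was 0.776, where nr3c2 ranked 373 among the genes most like klf9. The value was -0.352 for nr3c1 with fkbp5, -0.172 for nr3c2 with pck1 and -0.084 for nr3c2 with cebpd.

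A further 45 genes known to respond to glucocorticoids in fish or mammals were followed beside the 9. This list, like the 9 genes and the other lists, was chosen with earlier results of these data known. Its counts are thus a description and not independent support. The shares called at 250, 750 and 1295 ng/mL were 53.3%, 35.6% and 64.4%, where 10.5%, 6.33% and 41% of all genes were called. At 250 ng/mL 24 of the 45 were higher and none lower, with a median log2 fold change of 0.43 where the median of all genes was 0.04. At 750 ng/mL 16 were higher and none lower (median 0.33, all genes 0.02). At 1295 ng/mL 25 were higher and 4 lower (median 0.45, all genes -0.02). The count at 250 ng/mL was 15 without untreated replicate 1 and 15 without replicate 3 at 250 ng/mL, and the count at 750 ng/mL was 10 without replicate 3 of that dose. With total counts as the scale, 14 were higher and 8 lower at 1295 ng/mL.

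Within this group some genes peaked at the low doses and others at the top dose. The tyrosine aminotransferase gene tat, a classical liver target, averaged 22.5 CPM in untreated larvae, 62.4 CPM at 250 ng/mL, 69.1 CPM at 750 ng/mL and 32.8 CPM at 1295 ng/mL. It was higher by 1.47 at 250 ng/mL (SE 0.19, adjusted p = 0.000269) and by 1.62 at 750 ng/mL (SE 0.19, adjusted p = 0.000307). Its value at 1295 ng/mL was 0.54 (adjusted p = 0.0336), a call lost in 5 of 20 alternatives, among them leaving out untreated replicate 1 (0.34, adjusted p = 0.137) or 3 (0.53, adjusted p = 0.086) or replicate 2 at 1295 ng/mL (0.39, adjusted p = 0.137). The lipid phosphatase gene lpin1 averaged 52.8 CPM in untreated larvae, 130.9 CPM at 250 ng/mL, 94.5 CPM at 750 ng/mL and 40.6 CPM at 1295 ng/mL. It was higher at 250 ng/mL (1.31, adjusted p = 6.35e-05) and at 750 ng/mL (0.84, adjusted p = 0.00148). At 1295 ng/mL it was lower (-0.38, adjusted p = 0.0307), though leaving out untreated replicate 2 or 3 or any library at 1295 ng/mL ended that call, with values of -0.31 to -0.40. The monoamine oxidase gene mao was likewise higher at 250 ng/mL (0.44, adjusted p = 0.00862) and lower at 1295 ng/mL (-0.53, adjusted p = 0.000655). By contrast the metallothionein gene mt2 was called only at 1295 ng/mL, where it averaged 103.5 CPM, against 57.4 CPM in untreated larvae (0.85, adjusted p = 2.77e-05).

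Some well-known targets from that group were singled out after their values were seen. The gene ddit4, an inhibitor of mTORC1 signalling, was higher at all doses, with means of 17.3 CPM in untreated larvae, 33.7 CPM at 250 ng/mL (adjusted p = 0.00391), 34.5 CPM at 750 ng/mL (adjusted p = 0.00428) and 31.4 CPM at 1295 ng/mL (adjusted p = 0.00183). The gene klf15, a metabolic transcription factor induced by glucocorticoids in mammals, was called at the lowest dose, with 0.70 at 250 ng/mL (adjusted p = 0.00422), 0.47 at 750 ng/mL (adjusted p = 0.0509) and 0.04 at 1295 ng/mL (adjusted p = 0.848). The NF-kappaB inhibitor gene nfkbiaa was higher by 0.82 at 1295 ng/mL (adjusted p = 5.41e-05), and by 0.43 at 250 ng/mL (adjusted p = 0.0194). The second of these calls was lost without untreated replicate 1 (0.39, adjusted p = 0.0764) or 3 (0.39, adjusted p = 0.0702) or replicate 3 at 250 ng/mL (0.40, adjusted p = 0.0721). For the clock gene per1a, a direct target in mammals, no dose passed, with 0.41 at 250 ng/mL (adjusted p = 0.547), -0.22 at 750 ng/mL (adjusted p = 0.809) and -0.59 at 1295 ng/mL (adjusted p = 0.3) at a level near 1 CPM.

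**Figure D4:**
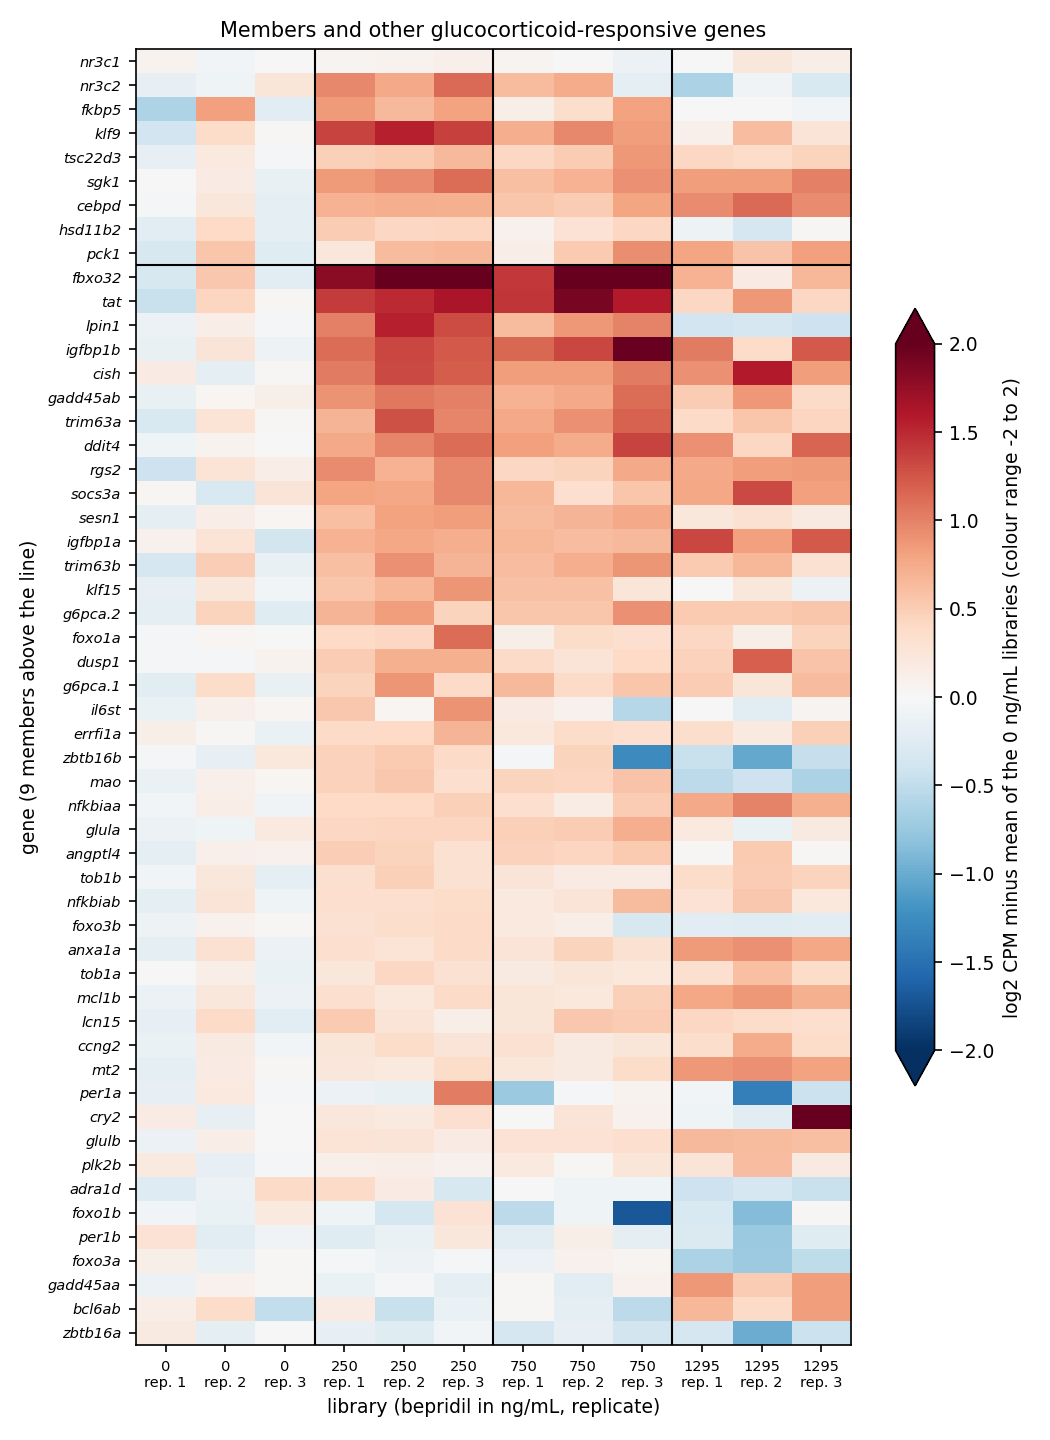
Log2 CPM of the 9 genes (above the line) and 45 other glucocorticoid-responsive genes in each library, minus the mean of the untreated libraries of that gene; columns are libraries ordered by dose, and red is above and blue below that mean, with colours held at 2 beyond it. The rows of tat, lpin1 and klf9 are redder in the columns at 250 and 750 ng/mL than in those at 1295 ng/mL. The row of fbxo32 reaches 3.16 in replicate 2 at 250 ng/mL, beyond the colour range. Untreated replicate 2 is redder than its neighbours for most rows, being the highest untreated library for 31 of the 45.

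Cortisol synthesis is driven by the hypothalamus, through corticotropin-releasing hormone (Crh), and by pituitary corticotropin, made from Pomc. Of 27 genes of this hormone axis in the table, 21 passed the filter. At 250 ng/mL 3 of the 21 were higher and none lower, at 750 ng/mL 2 were higher and 1 lower, and at 1295 ng/mL 1 was higher and 5 lower. The shares called, 14.3%, 14.3% and 28.6%, stand beside 10.5%, 6.33% and 41% of all genes. The 3 higher at 250 ng/mL were 0 without untreated replicate 1 or 3 or replicate 2 or 3 at 250 ng/mL, and 1 without untreated replicate 2, replicate 1 at 250 ng/mL or replicate 1 or 2 at 1295 ng/mL. The lower count at 1295 ng/mL was 3 without untreated replicate 1 or 3 and without replicate 2 of that dose, and also 3 with DESeq2's size factors in the edgeR fit. The hormone gene crhb averaged 3.76 CPM in untreated larvae, 6.11 CPM at 250 ng/mL, 7.87 CPM at 750 ng/mL and 3.33 CPM at 1295 ng/mL, and was higher by 1.06 at 750 ng/mL (SE 0.19, adjusted p = 0.00383). Its call at 250 ng/mL (0.70, adjusted p = 0.0333) was lost on leaving out any single library of either group, with values of 0.62 to 0.76. The gene for the Crh-binding protein, crhbp, was higher by 0.68 at 750 ng/mL (SE 0.13, adjusted p = 0.00703) and lower at 1295 ng/mL (-0.37, adjusted p = 0.0453), the second a call lost in 13 of 20 alternatives. The gene cyp17a1, for a steroid hydroxylase, was lower at 750 ng/mL (-0.83, SE 0.17, adjusted p = 0.00988) and higher at 1295 ng/mL (0.43, adjusted p = 0.0477), the second a call lost in 10 of 20 alternatives. The corticotropin precursor gene pomca, named after its values were seen, averaged 1.84 CPM at 1295 ng/mL, against 3.22 CPM in untreated larvae (-0.80, adjusted p = 0.0448), a call lost in 10 of 20 alternatives. The genes star, cyp11a2, cyp11c1, cyp21a2 and hsd3b1, which carry cholesterol into mitochondria or act in its conversion to cortisol, were singled out after their values were seen. They do not include cyp17a1, whose calls at 750 and 1295 ng/mL are given above. None of the 5 passed against untreated larvae, with log2 fold changes from -0.51 to 0.18 at 250 ng/mL (lowest adjusted p = 0.489), -0.39 to 0.26 at 750 ng/mL (lowest adjusted p = 0.485) and -0.55 to 0.33 at 1295 ng/mL (lowest adjusted p = 0.106). Their mean levels lay between 0.46 and 6.76 CPM in all dose groups. The hormone itself was not measured here.

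The Hsp90 machinery holds the receptor in its hormone-binding form. Some of its genes were lower at the lowest dose, and more were higher at the top dose. Of 21 chaperone and cochaperone genes, 7 were lower and none higher at 250 ng/mL (median -0.29, all genes 0.04), 2 were lower and none higher at 750 ng/mL (median -0.12), and 13 were higher and none lower at 1295 ng/mL (median 0.29, all genes -0.02). The shares called were 33.3%, 9.52% and 61.9%, where 10.5%, 6.33% and 41% of all genes were called. Set directly against 250 ng/mL, 19 of the 21 chaperone genes were higher at 1295 ng/mL and none lower (90.5% called, all genes 57.4%). Their median was 0.59 where that of all genes was -0.07. The inducible Hsp90 gene hsp90aa1.1 averaged 124.3 CPM in untreated larvae, 81 CPM at 250 ng/mL, 99 CPM at 750 ng/mL and 175.8 CPM at 1295 ng/mL. It was lower at 250 ng/mL (-0.62, SE 0.11, adjusted p = 0.00302) and higher at 1295 ng/mL (0.50, SE 0.11, adjusted p = 0.00263). The gene for the cochaperone p23, ptges3b, was lower at 250 ng/mL (-0.56, adjusted p = 0.00189), as was the Hsp90 activator gene ahsa1a (-0.70, adjusted p = 0.000733). The constitutive hsp90ab1, named after its values were seen, was not called at 250 ng/mL (0.06, adjusted p = 0.713 by edgeR). It averaged 3704.7 CPM at 1295 ng/mL, against 3001.6 CPM in untreated larvae (0.30, adjusted p = 0.0183). That call was lost without untreated replicate 2 (0.27, adjusted p = 0.0504) or 3 (0.26, adjusted p = 0.0833) or replicate 2 at 1295 ng/mL (0.25, adjusted p = 0.072). The part of muscle or other tissue RNA in the chaperone levels was not tested.

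The counts for these chaperones depended on single libraries and on scaling. The 7 genes lower at 250 ng/mL were 3 without untreated replicate 1, without replicate 2 at 250 ng/mL or without replicate 3 at 250 ng/mL, 11 with DESeq2 and 12 without replicate 3 at 750 ng/mL. The 2 lower at 750 ng/mL were 0 without untreated replicate 1 or 3 or replicate 1 or 2 at 750 ng/mL, 1 without untreated replicate 2, replicate 2 at 250 ng/mL or replicate 1 or 3 at 1295 ng/mL, and 4 with DESeq2. The 13 higher at 1295 ng/mL were 6 without untreated replicate 3, 8 without replicate 2 at 1295 ng/mL and 2 with total counts as the scale. With that scaling hsp90aa1.1 had 0.25 (adjusted p = 0.11) and hsp90ab1 0.04 (adjusted p = 0.645) at 1295 ng/mL. The count of 19 at 1295 against 250 ng/mL was 12 with total counts.

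The receptor acts through coactivators and corepressors, of which 22 were tested. At 250 ng/mL 2 were higher and none lower, at 750 ng/mL none was called, and at 1295 ng/mL 2 were higher and 9 lower (median -0.27). The shares called were 9.09%, 0% and 50%, where 10.5%, 6.33% and 41% of all genes were called. The 2 higher at 250 ng/mL were 0 without untreated replicate 1 or 2 or replicate 3 at 250 ng/mL and with total counts, and 1 without any other single library except replicate 1 at 250 ng/mL, which kept 2. Leaving out untreated replicate 2 gave 2 lower there and 2 lower at 750 ng/mL. The lower count at 1295 ng/mL was 4 without untreated replicate 3, 3 without replicate 2 of that dose and 16 with total counts. The corepressor gene nrip1a (-0.71, adjusted p = 0.000199) and the acetyltransferase gene ep300b (-0.65, adjusted p = 0.000811) were among those lower at 1295 ng/mL. At 250 ng/mL nrip1a was higher (0.40, adjusted p = 0.028), a call lost in 6 of 20 alternatives. The gene nr0b2a, for the corepressor Shp that bile acids induce in mammalian liver, averaged 56 CPM at 1295 ng/mL, against 32.1 CPM in untreated larvae (0.81, adjusted p = 0.000693).

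Gluconeogenesis genes, which include pck1 and tat, split in direction. Of 27 tested, 8 were higher and 4 lower at 250 ng/mL, 5 were higher and none lower at 750 ng/mL, and 10 were higher and 2 lower at 1295 ng/mL. The shares called were 44.4%, 18.5% and 44.4%, where 10.5%, 6.33% and 41% of all genes were called. At 1295 ng/mL the share was thus near that of all genes. The higher count at 250 ng/mL was 1 without untreated replicate 1, 2 without untreated replicate 3 and 2 to 5 without any library at 250 or 750 ng/mL or without replicate 1 or 2 at 1295 ng/mL. The higher count at 750 ng/mL was 1 without untreated replicate 1 or 3 and 1 or 2 without any library at 750 ng/mL. The counts at 1295 ng/mL were 6 higher and 1 lower without untreated replicate 3, 8 higher and 1 lower without replicate 2 of that dose, and 2 higher and 6 lower with total counts as the scale. The mitochondrial isoform gene pck2 was lower at 250 ng/mL (-0.37, adjusted p = 0.0141) and higher at 1295 ng/mL (0.34, adjusted p = 0.00546). The first call was lost without untreated replicate 1 (-0.33, adjusted p = 0.0588) or replicate 3 at 250 ng/mL (-0.34, adjusted p = 0.0537), and the second with total counts (0.09, adjusted p = 0.407). The glucose 6-phosphate transporter gene slc37a4b was lower at 250 ng/mL (-0.46, adjusted p = 0.00482).

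**Figure D5:**
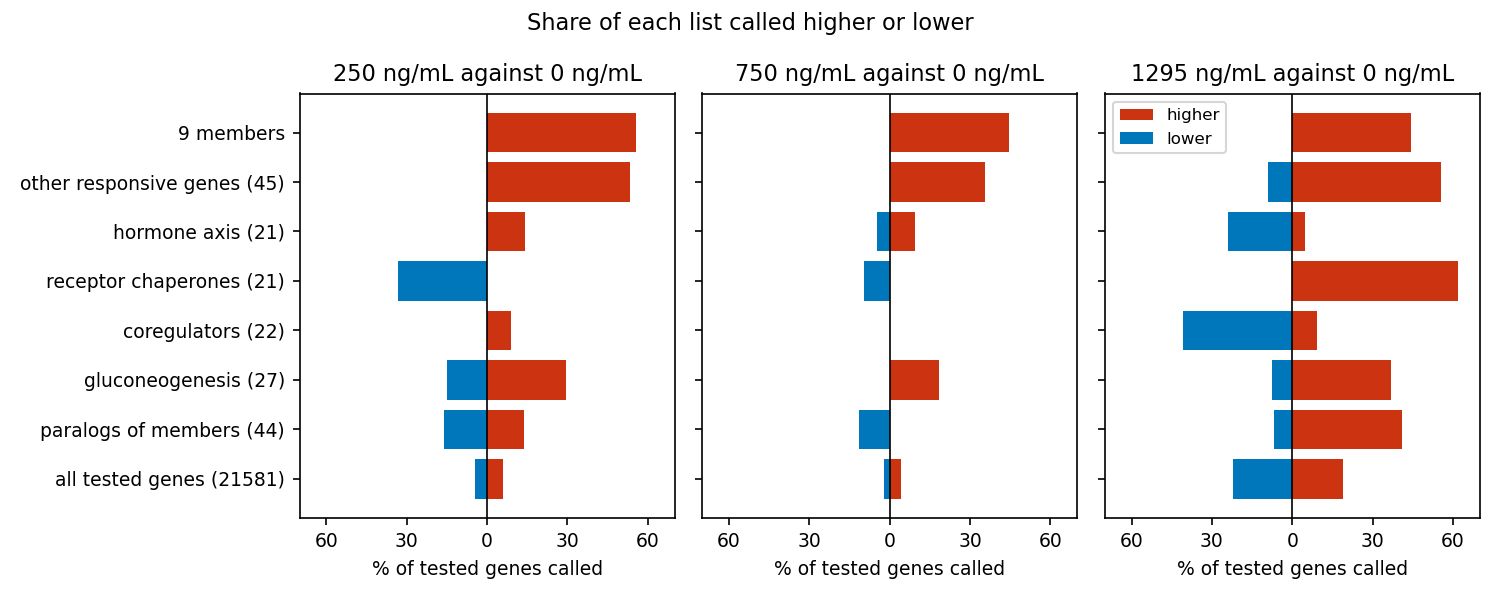
Share of each gene list called higher (red, to the right) or lower (blue, to the left) at 250, 750 and 1295 ng/mL against 0 ng/mL, in percent of its tested genes, whose number is in brackets; the lowest row gives all tested genes. The 9 members have 5, 4 and 4 genes on the right and none on the left. Of the 21 receptor chaperones, 7 are on the left at 250 ng/mL and 13 on the right at 1295 ng/mL.

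Markers of the tissues that could carry these genes changed as well. Against untreated larvae, 10.5%, 6.33% and 41% of all genes were called at 250, 750 and 1295 ng/mL. The shares called were 56.5%, 52.2% and 69.6% for intestine and 40.9%, 40.9% and 63.6% for liver markers. They were 15%, 10% and 30% for pronephros, 11.1%, 5.56% and 88.9% for ionocyte, and 16.7%, 4.17% and 83.3% for muscle markers. Of 23 intestine markers 10 were higher and 3 lower at 250 ng/mL, 11 higher and 1 lower at 750 ng/mL (0 lower without untreated replicate 1 or replicate 1 at 750 ng/mL), and 5 higher and 11 lower at 1295 ng/mL. Their sum was nevertheless 9600.7 to 10973.9 CPM at 1295 ng/mL, against 4680.0 to 5830.9 CPM in untreated larvae, with the apolipoprotein gene apoa1a alone averaging 7823.0 CPM, against 3474.2 CPM. The peptide transporter gene slc15a1b, a defining marker of enterocytes, averaged 20 CPM in untreated larvae, 52.2 CPM at 250 ng/mL, 45.6 CPM at 750 ng/mL and 8.59 CPM at 1295 ng/mL. Liver markers had 5 higher and 4 lower of 22 at 250 ng/mL and the same counts at 750 ng/mL, where leaving out untreated replicate 1 or replicate 3 of either group gave 3 higher, and the lower count was 1 to 3 without any library of either group. The 4 lower at 250 ng/mL were 7 without replicate 2 at 1295 ng/mL. Pronephros markers had 3 of 20 higher at 250 ng/mL (1 without untreated replicate 1 or 3 or replicate 2 at 250 ng/mL) and 2 at 750 ng/mL. The count at 750 ng/mL was 1 without untreated replicate 1 or 3, replicate 2 at 250 ng/mL, replicate 1 or 3 at 750 ng/mL or any library at 1295 ng/mL. Ionocyte markers, of the skin cells that take up salts, had 2 of 18 higher at 250 ng/mL (1 without untreated replicate 1 or replicate 3 at 250 ng/mL), 1 higher at 750 ng/mL (0 without replicate 3 at 750 ng/mL), and 13 higher and 3 lower at 1295 ng/mL. Muscle markers had 3 of 24 higher and 1 lower at 250 ng/mL (0 higher without untreated replicate 1, and 1 without untreated replicate 3, any library at 250 ng/mL or replicate 2 at 750 ng/mL), 1 lower at 750 ng/mL, and 15 higher and 5 lower at 1295 ng/mL, where their sum was 114158.2 to 136162.5 CPM, against 83913.1 to 94180.1 CPM in untreated larvae. With total counts as the scale, 14 pronephros and 8 muscle markers were lower at 1295 ng/mL. The part of these tissues in the values of the 9 genes was not tested.

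Genes that lie over the members could share reads with them, because the strand setting of the counting is not given in the sources used here although the library kit was stranded. In an annotation of another build, fkbp5 overlaps srsf3a, hsd11b2 overlaps zdhhc1 and pck1 overlaps pmepa1. The gene sgk1 overlaps a long noncoding RNA gene that was not analysed here. None of the 3 named neighbours was called in any of the 6 contrasts. At 250 against 0 ng/mL the srsf3a value was -0.09 (adjusted p = 0.585), that of zdhhc1 was -0.19 (adjusted p = 0.438) and that of pmepa1 was 0.19 (adjusted p = 0.649).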

How the data were processed

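Messenger RNA was sequenced from 12 pools of whole larvae. Per the labels' protocols a stranded mRNA kit was used. HISAT2, HTSeq and Trimmomatic are named per the submitters' processing notes, with build GRCz11. Tool versions, gene annotation and the strand option of the counting are not given in these notes. As deposited by the authors, each value is a raw count of reads on a gene, judged unnormalized from its whole numbers and unequal totals; 12 per-sample files held the same counts as the table. Of 25099 names, 18 had no count and 10 had become dates and were left so. The chi-square per degree of freedom between replicate libraries was 3.69 to 16.08, above sampling noise, so each library counted once.

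In R 4.3.3, edgeR 4.0.16 filtered genes with filterByExpr, scaled by TMM and fitted all 12 libraries in 1 quasi-likelihood model with dose as a factor of 4 levels, leaving 8 residual degrees of freedom. All 6 pairs of doses were contrasted, with Benjamini-Hochberg adjustment over 21581 genes and a threshold of 0.05. Fold changes used a prior count of 0.125, the SE was computed as the absolute log2 fold change over the square root of F, and intervals are 95%. The common dispersion was 0.0146. The test was checked on simulated counts. Alternatives were RLE scaling (DESeq2's size factors), total counts only, no filter, a filter at 10 counts per library, limma-voom (limma 3.58.1), DESeq2 1.42.0, only the compared groups, a replicate block, an adjusted p under 0.01, and leaving out each library.

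The members and gene lists were chosen with earlier results of these data known. Lists came from textbook knowledge. From each list the named genes are up to 4 with the smallest p of the 3 dose coefficients together and a mean of at least 1 CPM; others are said to be singled out. The values of 1 gene that this rule names are not reported here. Like genes are the 2 with the highest Pearson r of log2 CPM (prior count 2) among genes of at least 5 CPM. No coordinates, gene lengths or sequences were used here. Overlapping genes were looked up by name in a RefSeq table of another build. At these depths counting error is larger for nr3c2, which had 67 to 259 counts per library, and small for the other members.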

Additional observations from a re-analysis of the deposited data

How the results depend on the processing

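For the 9 genes, 54 log2 fold changes were recomputed under 20 alternatives. Of 1080 values, 1017 kept their sign and side of the threshold, 30 lost a call, 18 gained one and 15 turned sign. With total counts as the scale, those that turned were nr3c1 at 1295 against 0, 250 and 750 ng/mL (-0.13, -0.21 and -0.08), pck1 at 1295 against 250 and 750 ng/mL (-0.04 and -0.06) and sgk1 at 1295 against 750 ng/mL (-0.08). Leaving out single libraries turned the rest, whose values ranged from -0.06 to 0.01 for nr3c1 at 750 against 0 ng/mL (highest without untreated replicate 1), -0.42 to 0.38 for fkbp5 and -0.27 to 0.07 for hsd11b2 at 1295 against 0 ng/mL (both highest without untreated replicate 2), -0.08 to 0.15 for tsc22d3 and -0.17 to 0.22 for pck1 at 750 against 250 ng/mL (both lowest without replicate 3 at 750 ng/mL, pck1 also -0.08 without replicate 1 at 250 ng/mL), -0.15 to 0.01 for sgk1 at 1295 against 250 ng/mL (highest without replicate 2 at 1295 ng/mL), -0.28 to 0.00 for tsc22d3 at 1295 against 750 ng/mL (highest without replicate 3 at 750 ng/mL), and -0.01 to 0.44 for pck1 at 1295 against 750 ng/mL (lowest without replicate 1 at 750 ng/mL). The cause was not tested.

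Leaving out 1 library at a time, the count of members called ranged from 4 to 8 at 250 ng/mL, 4 to 7 at 750 ng/mL and 2 to 5 at 1295 ng/mL against 0 ng/mL, from 3 to 5 at 1295 against 250 ng/mL and from 1 to 5 at 1295 against 750 ng/mL. The number of all genes called ranged from 1069 to 3051 at 250 ng/mL, 631 to 1568 at 750 ng/mL and 6519 to 9607 at 1295 ng/mL against 0 ng/mL, and from 0 to 1 at 750 against 250 ng/mL. At an adjusted p under 0.01, 2 members were called at 1295 against 0 ng/mL, 3 at 1295 against 250 ng/mL and 2 at 1295 against 750 ng/mL, and 824, 547 and 5597 genes at 250, 750 and 1295 against 0 ng/mL. A fit of the compared groups alone called 813 genes at 750 against 0 ng/mL, and DESeq2 called 5 at 750 against 250 ng/mL. Among called genes 57.4% were higher at 250 against 0 ng/mL, 48.7% with RLE and 45.8% with DESeq2 scaling.

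Replicate numbers pair nothing by the labels, and deviations of same-numbered libraries correlated between -0.211 and 0.135. With the replicate block, 5, 4 and 5 members were called at 250, 750 and 1295 against 0 ng/mL, 0 at 750 against 250 ng/mL, 5 at 1295 against 250 ng/mL and 3 at 1295 against 750 ng/mL; klf9 at 1295 against 0 ng/mL was called (0.32, adjusted p = 0.0352) and hsd11b2 at 1295 against 750 ng/mL was not (-0.40, adjusted p = 0.0524). For the list genes, 114 calls against 0 ng/mL gave 2278 values, of which 2083 kept the call and 195 lost it, in 40 of the 114, with no change of sign.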

Other observations

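Relatives of the 9 genes were called in both directions at 250 and at 1295 ng/mL. Of 44 tested paralogs (other Fkbp, Klf, Cebp, Sgk, Tsc22, steroid receptor and related genes), 6 were higher and 7 lower at 250 ng/mL, none higher and 5 lower at 750 ng/mL, and 18 higher and 3 lower at 1295 ng/mL, where the background of all genes called was 10.5%, 6.33% and 41%. The counts at 250 ng/mL were 3 higher and 4 lower without untreated replicate 1, the lower count there was 4 without replicate 3 of that dose, and 5 were higher and 6 lower at 1295 ng/mL with total counts as the scale. Without replicate 3 at 750 ng/mL, 5 were lower at 1295 ng/mL, and without untreated replicate 3, 1 was. At 750 ng/mL 3 were higher without untreated replicate 2 and 2 without replicate 2 at 1295 ng/mL. The fkbp9 gene averaged 91.9 CPM in untreated larvae, 42.6 CPM at 250 ng/mL, 47.9 CPM at 750 ng/mL and 121.0 CPM at 1295 ng/mL, with a log2 fold change of -1.11 at 250 ng/mL (SE 0.12, adjusted p = 8.9e-05 by edgeR's quasi-likelihood test). At 250 ng/mL the value was -0.84 for fkbp14 (adjusted p = 0.000221), -0.79 for fkbp10b (adjusted p = 0.000252) and -0.76 for fkbp7 (adjusted p = 0.00219), the last singled out after its values were seen. All 4 were higher at 1295 ng/mL, by 0.40 for fkbp9 (adjusted p = 0.0136), 0.39 for fkbp14 (adjusted p = 0.00624), 0.27 for fkbp10b (adjusted p = 0.0367) and 0.51 for fkbp7 (adjusted p = 0.0057), and each of these calls was lost with total counts as the scale. The fkbp9 call was also lost without untreated replicate 3 (0.36, adjusted p = 0.0603) or replicate 2 at 1295 ng/mL (0.34, adjusted p = 0.0605), and that of fkbp10b without untreated replicate 1 or 3 or replicate 1 or 2 at 1295 ng/mL (0.24 to 0.28).

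The bZIP gene cebpb, a relative of cebpd in the acute-phase response of mammals, averaged 109.0 CPM in untreated larvae, 153.7 CPM at 250 ng/mL, 133.5 CPM at 750 ng/mL and 328.9 CPM at 1295 ng/mL. It was higher by 0.50 at 250 ng/mL (adjusted p = 0.00969) and by 1.59 at 1295 ng/mL (adjusted p = 3.95e-06). Its value at 750 ng/mL was 0.29 (adjusted p = 0.131). The klf9 relative klf2b, a flow-responsive gene of endothelium named after its values were seen, averaged 230.1 CPM at 1295 ng/mL, against 142.3 CPM in untreated larvae (0.69, adjusted p = 0.00449). At 750 ng/mL klf2b was lower (-0.67, adjusted p = 0.0277), a call lost with only the compared groups (-0.71, adjusted p = 0.0652), without untreated replicate 1 (-0.47, adjusted p = 0.153) or without replicate 2 (-0.71, adjusted p = 0.0578) or 3 (-0.57, adjusted p = 0.0832) at 750 ng/mL. Another Klf gene named after its values were seen, klf7a, went the other way at the top dose. It averaged 4.25 CPM at 1295 ng/mL, against 10.1 CPM in untreated larvae (-1.25, adjusted p = 0.000906 by edgeR). That call held in all 20 alternatives. At 250 and 750 ng/mL klf7a was not called (0.15 and -0.06).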
